A study of Drosophila melanogaster with 23 samples.

Results

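The Cyp6a genes of Drosophila melanogaster encode cytochrome P450 enzymes, and 8 of them that lie side by side on chromosome 2R were followed in RNA from adult heads: Cyp6a22, Cyp6a17, Cyp6a23, Cyp6a19, Cyp6a9, Cyp6a20, Cyp6a21 and Cyp6a8. They were chosen by FlyBase symbol around Cyp6a17, which was itself selected on its measured level, higher in all mutants than in wild type, so its mutant and wild type levels are given as a description with no test. Of the 8 genes, 7 were among the 17559 genes of the tables. Cyp6a21 (FBgn0288232) was not analysed here. All 7 passed the filter on low values, which kept the 9588 genes that reached 10 normalized counts in 4 or more of 20 libraries. Cyp6a17 and Cyp6a8 passed it through heterozygote libraries alone, since no WT library reached 10 for either, so a gene of this kind was kept because of the group in which it is higher.

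P450 enzymes are haem proteins of the endoplasmic reticulum or the mitochondrion that add oxygen to fatty acids, hormones and foreign compounds. Those of the endoplasmic reticulum take electrons from a shared reductase. In insects the CYP6 genes are best known for the breakdown of plant toxins and insecticides, and neighbouring copies arose by gene duplication. Within the Drosophila cluster, Cyp6a17 is known for a role in temperature preference, Cyp6a20 for a role in male aggression and Cyp6a8 for the hydroxylation of a fatty acid, while Cyp6a23, Cyp6a22, Cyp6a19 and Cyp6a9 are less well described.

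The libraries came from heads of adult flies at 5 to 7 days after pupation. The groups were flies heterozygous for ash1-mimic (ASH1L/+), bchs58 (WDFY3/+), chd1[1] (CHD2/+) or kis1 (CHD8/+), the double heterozygote of kis1 and wrd104 (CHD8/+; PP2R5D/+), and w1118 flies as wild type (WT). The 4 single heterozygotes and WT had 4 biological replicates each, and the double heterozygote had 3. Each mutation came in its own stock, so a mutation and the stock that carries it cannot be told apart here. The fly genes are orthologs of human genes linked to autism spectrum disorder, and the study compared heterozygotes with WT to look for shared changes in expression.

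The values are normalized counts of reads from the 3' ends of transcripts. They summed to 3.98 to 8.56 M per library (median 4.82 M), with ASH1L/+ replicate 3 the highest, and an estimated 2.81 to 9.78 M reads lay behind each library (median 5.12 M). Photoreceptor markers averaged 12.5 to 13.7 and neuronal markers 9.17 to 10.9 on the log2 scale over the libraries, while germ line markers averaged 0.16 to 2.09, so the defining markers of heads were present. Markers of epidermis and cuticle averaged 3.77 to 4.98 in CHD8/+ and 2.48 to 3.75 in WT, without overlap. In whole heads, fewer cells of a type and less RNA per cell cannot be told apart.

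On BDGP6, Cyp6a22 (FBgn0013773) ran from 14871366 to 14873705, Cyp6a17 (FBgn0015714) from 14873953 to 14875739, Cyp6a23 (FBgn0033978) from 14875829 to 14877654 and Cyp6a19 (FBgn0033979) from 14877786 to 14879752, all on the plus strand. Cyp6a9 (FBgn0013771) followed on the minus strand from 14879356 to 14881372, Cyp6a20 (FBgn0033980) on the plus strand from 14882118 to 14884046 and Cyp6a8 (FBgn0013772) on the minus strand from 14887171 to 14889010. Cyp6a19 and Cyp6a9 overlap at their 3' ends on opposite strands, and whether the assignment of reads used strand is not given in the sources used here, so their values may hold reads of each other. Cyp6a17 and Cyp6a23 are close paralogs and may also share reads. The values were not divided by transcript length, so each gene is compared between genotypes and not ranked against the others.

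Cyp6a17 was present in every heterozygote library and close to 0 in every WT library. It had 140, 270, 192 and 184 normalized counts in ASH1L/+, 182, 368, 742 and 406 in WDFY3/+, 268, 340, 372 and 469 in CHD2/+, and 196, 247, 358 and 385 in CHD8/+, against 4.57, 0, 3.13 and 1.29 in WT. The lowest heterozygote library therefore stood far above the highest WT library, and no library overlapped between the groups. In estimated reads the WT values came to 5, 0, 4 and 2, or 11 in about 21.7 M, with an exact Poisson 95% interval of 5.49 to 19.7 that covers counting error only.

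**Figure D1:**
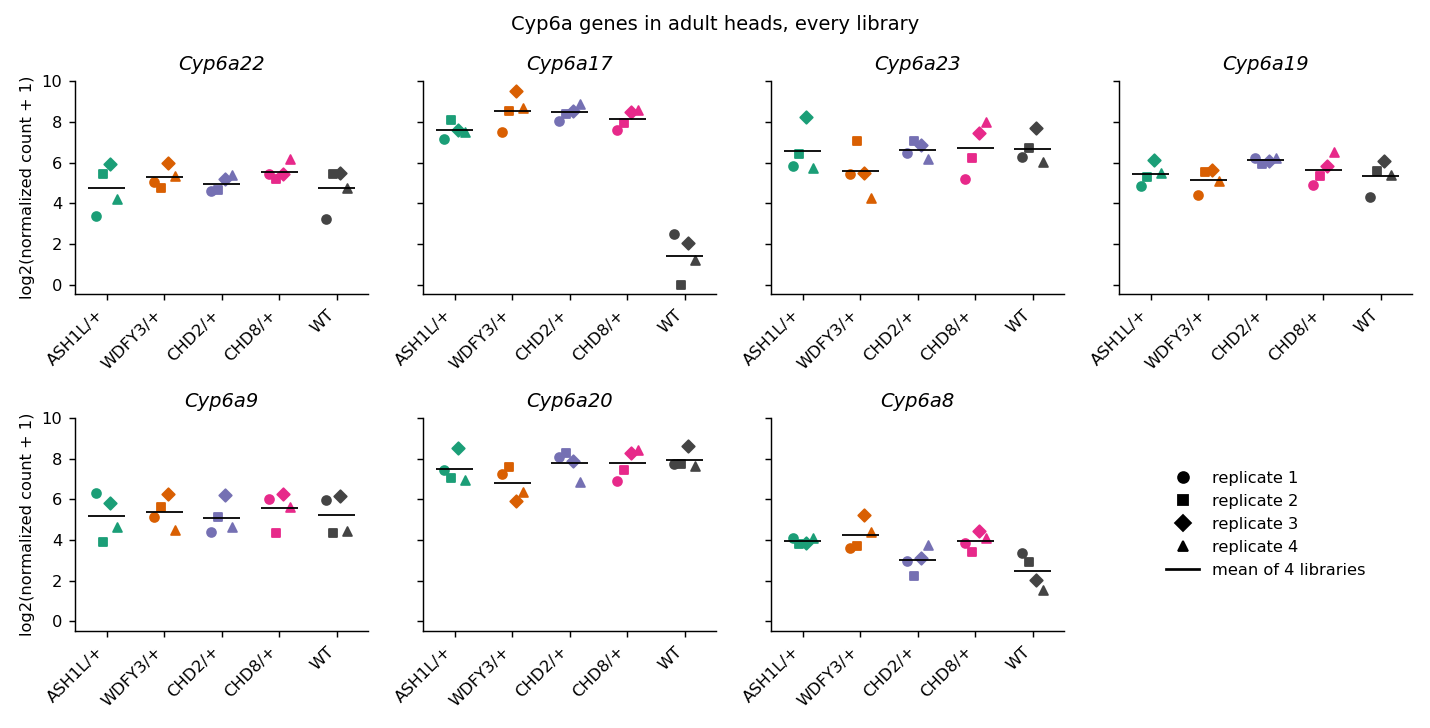
The log2 of the normalized count plus 1 is plotted for 7 Cyp6a genes in each library of ASH1L/+, WDFY3/+, CHD2/+, CHD8/+ and WT, with the replicate number as the symbol and the mean of 4 libraries as a line. Cyp6a17 stands at 140 to 742 normalized counts in the heterozygotes and at 0 to 4.57 in WT, while the genes on either side of it overlap between the genotypes.

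The mean level of Cyp6a17 was 425 ± 233 normalized counts in WDFY3/+, 362 ± 83.7 in CHD2/+, 297 ± 89.8 in CHD8/+ and 196 ± 53.9 in ASH1L/+, against 2.25 ± 2.01 in WT (SD, n = 4 each). The ratio of the means to WT was 87.4 in ASH1L/+, with 48.9 to 175 as the interval from counting error in WT. It was 189 in WDFY3/+ (106 to 379), 161 in CHD2/+ (90.2 to 323) and 132 in CHD8/+ (73.8 to 265). All 4 intervals rest on the same WT reads and hold no spread between mutant libraries, so they do not compare the mutants with each other. They describe counting error in WT and are no test of the difference, by which Cyp6a17 was chosen. On the fitted log2 scale the changes were 6.16, 7.13, 7.05 and 6.74 in ASH1L/+, WDFY3/+, CHD2/+ and CHD8/+. No error is attached to them for the same reason. The fitted size depends on the 1 added before the log, and it lay between 4.05 and 7.55 over all other settings in which Cyp6a17 was counted apart from Cyp6a23.

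Counting the pair together made the difference smaller, because Cyp6a23 was present in WT. The summed value of Cyp6a17 and Cyp6a23 had log2 changes of 2.13 in CHD2/+, 2.07 in WDFY3/+, 1.93 in CHD8/+ and 1.52 in ASH1L/+. Cyp6a17 made up 38.9% to 77.9% of the pair in ASH1L/+ libraries, 73.6% to 95.7% in WDFY3/+, 71.8% to 86.9% in CHD2/+ and 60.03% to 84.8% in CHD8/+, against 0% to 5.66% in WT. The pair was thus composed differently in WT, while both genes were measured in the same libraries.

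Between the heterozygotes, a comparison that the choice of Cyp6a17 did not use, its mean level was in the order ASH1L/+, CHD8/+, CHD2/+ and WDFY3/+ from low to high. None of the 6 differences passed. The widest was ASH1L/+ against WDFY3/+, with a log2 difference of -0.98 (SE 0.46, 95% interval -1.93 to -0.03, adjusted p = 1 from limma), and the ranges overlapped because WDFY3/+ replicate 1 stood at 182. The difference was -0.89 (adjusted p = 0.73) for ASH1L/+ against CHD2/+ and -0.58 (adjusted p = 1) for ASH1L/+ against CHD8/+. Genotype held 95.5% of the variance of Cyp6a17 over the 20 libraries, a share that the rule itself sets, and replicate number held 1.00%.

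The 6 other members did not share this pattern. Calls required an adjusted p below 0.05 from limma, with Benjamini-Hochberg adjustment over all genes kept, together with a 1.5-fold or larger change. Among all genes, 0.0939% were called in ASH1L/+ against WT, 0.0521% in WDFY3/+, 0.188% in CHD2/+, 0.271% in CHD8/+ and 0.229% for the mean of the 4 heterozygotes. These were 9, 5, 18, 26 and 22 genes. A block for replicate number raised them to 71 in CHD8/+, 24 in WDFY3/+ and 20 in ASH1L/+, where same-numbered libraries were paired. Of the 6 members besides Cyp6a17, 0 were called in each of the 5 comparisons with WT, with or without the block. An unadjusted p under 0.05 from limma was reached by Cyp6a8 in ASH1L/+, WDFY3/+, CHD8/+ and the mean of the heterozygotes, and by Cyp6a20 in WDFY3/+. Cyp6a8 was kept only through heterozygote libraries, so its p against WT is not independent of the filter. Of all 9588 genes kept, 250 reached such a p in ASH1L/+, 313 in WDFY3/+, 664 in CHD2/+, 359 in CHD8/+ and 318 for the mean.

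**Figure D2:**
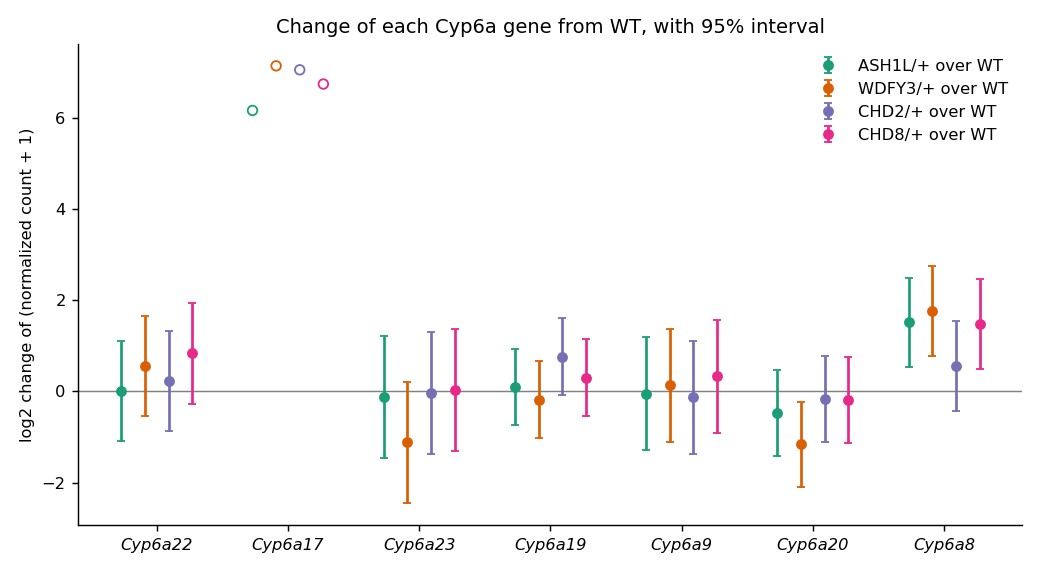
The log2 change from WT of the normalized count plus 1 is plotted for 7 Cyp6a genes in ASH1L/+, WDFY3/+, CHD2/+ and CHD8/+, with the 95% interval of the limma fit as bars. Cyp6a17, chosen by this contrast, is drawn as open points without an interval and lies at 6.16 to 7.13, Cyp6a8 at 0.56 to 1.77, and the other 5 genes between -1.16 and 0.83.

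The median log2 change of these 6 members was 0.31 in CHD8/+, 0.10 in CHD2/+, -0.02 in WDFY3/+ and -0.02 in ASH1L/+. The medians over all genes were -0.01, -0.02, 0.01 and 0.03 in the same order. Of the 6, 5 had a value above 0 in CHD8/+ and 3 in each of the other heterozygotes. Their summed level was 540 ± 256 normalized counts in CHD8/+, 480 ± 103 in CHD2/+, 455 ± 274 in ASH1L/+ and 322 ± 103 in WDFY3/+, against 493 ± 204 in WT (SD, n = 4 each), so all 4 means lay within 1 SD of WT.

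Cyp6a8 had the widest difference from WT after Cyp6a17 in ASH1L/+, WDFY3/+ and CHD8/+, at a low level, while in CHD2/+ that of Cyp6a19 was wider. It had 16.1, 13.1, 13.6 and 16.2 normalized counts in ASH1L/+, 11.2, 11.99, 36.5 and 19.7 in WDFY3/+, 6.95, 3.77, 7.61 and 12.5 in CHD2/+, and 13.2, 9.58, 20.6 and 16.2 in CHD8/+, against 9.16, 6.45, 3.14 and 1.93 in WT. All libraries of ASH1L/+, WDFY3/+ and CHD8/+ were above the highest WT library, and those of CHD2/+ overlapped with WT. The libraries of the groups were likewise apart in 1.6% of all genes for ASH1L/+, 2.22% for WDFY3/+, 5.54% for CHD2/+ and 3.01% for CHD8/+.

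The log2 change of Cyp6a8 was 1.51 (SE 0.47, adjusted p = 0.72 from limma) in ASH1L/+, 1.77 (SE 0.47, adjusted p = 0.36) in WDFY3/+, 0.56 (SE 0.47, adjusted p = 0.75) in CHD2/+ and 1.48 (SE 0.47, adjusted p = 0.52) in CHD8/+. None passed the threshold. Since Cyp6a8 was kept by the filter only through heterozygote libraries, these values are not independent of the filter, and with no filter the adjusted p was 1, 0.77, 0.86 and 0.83 in the same order. With replicate number as a block the adjusted p was 0.33, 0.18, 0.51 and 0.21 in the same order, the lowest value over the other settings in each comparison. The change was above 0 under every other setting run in the 4 comparisons. The value in CHD8/+ was 1.70 with the cuticle markers as a covariate.

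Cyp6a20 was lower in every WDFY3/+ library than in any WT library. It had 152, 194, 60.5 and 80.2 normalized counts in WDFY3/+, against 215, 216, 400 and 197 in WT, a log2 change of -1.16 (SE 0.45, 95% interval -2.10 to -0.22, adjusted p = 1 from limma). This difference did not pass, and its adjusted p was 0.56 with the block. In ASH1L/+ the values were 171, 130, 363 and 123, of which 3 lay below the WT range (-0.47, SE 0.45, adjusted p = 1 from limma). Cyp6a20 was lower than in the WT library of the same number in 4 of 4 ASH1L/+ pairs, replicate 3 included, and in 4 of 4 WDFY3/+ pairs. In CHD8/+ it was lower in 3 of 4 pairs. All these pairs use the same 4 WT libraries. The share of all genes with 4 of 4 pairs in 1 direction is not given here, so the counts have no background. In CHD2/+ they were 270, 315, 234 and 114 (-0.17, SE 0.45), and in CHD8/+ 119, 172, 311 and 346 (-0.18, SE 0.45). Of the 16 heterozygote libraries, none exceeded the highest WT library, replicate 3 at 400, which stood apart from the other WT libraries.

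Cyp6a23, the nearest neighbour of Cyp6a17 downstream, was present in WT at levels that overlapped those of each heterozygote. It had 56.1, 84.8, 301 and 52.1 normalized counts in ASH1L/+, 42.6, 132, 44.5 and 18.2 in WDFY3/+, 89.2, 134, 115 and 70.7 in CHD2/+, and 35.3, 73.5, 174 and 257 in CHD8/+, against 76.03, 103, 209 and 65.1 in WT. The groups overlapped throughout, although 3 of 4 WDFY3/+ libraries were below the lowest WT library. The log2 changes were -0.13, -1.12, -0.04 and 0.03 (SE 0.64 each, adjusted p from limma 0.99 to 1) in ASH1L/+, WDFY3/+, CHD2/+ and CHD8/+. With a standard error this wide, the 95% interval ran from -1.46 to 1.21 in ASH1L/+ and from -2.45 to 0.22 in WDFY3/+. Changes of up to about those sizes could not be seen at this spread. With replicate number as a block the SE was 0.54 in each heterozygote, and Cyp6a23 was not called.

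Cyp6a22, the nearest neighbour of Cyp6a17 upstream, had 35.2 to 71.9 normalized counts in CHD8/+ with a median of 42.4, 26.4 to 61.4 in WDFY3/+ with a median of 35.8, 9.23 to 60.1 in ASH1L/+ with a median of 30.3 and 23.2 to 40.6 in CHD2/+ with a median of 30.0, against 8.25 to 44.7 in WT with a median of 34.2. The log2 changes were 0.83, 0.55, 0.01 and 0.23 in the same order of heterozygotes (SE 0.53 each), and none passed. Neither gene that flanks Cyp6a17 was therefore called in any heterozygote.

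Cyp6a19 had 28.3, 38.9, 69.1 and 43.5 normalized counts in ASH1L/+, 19.96, 46.2, 48.9 and 32.9 in WDFY3/+, 73.4, 59.6, 66.6 and 73.0 in CHD2/+, and 29.0, 39.5, 55.5 and 91.6 in CHD8/+, against 19.0, 47.5, 67.5 and 40.7 in WT. CHD2/+ had the narrowest spread, with a log2 change of 0.76 (SE 0.40, adjusted p = 0.71 from limma) that did not pass. The changes of Cyp6a19 were 0.10, -0.18 and 0.30 in ASH1L/+, WDFY3/+ and CHD8/+. Cyp6a9, whose 3' end overlaps that of Cyp6a19, had log2 changes of -0.05, 0.13, -0.13 and 0.33 (SE 0.59 each) in ASH1L/+, WDFY3/+, CHD2/+ and CHD8/+. With replicate number as a block the SE in each heterozygote was 0.31 for Cyp6a19 and 0.42 for Cyp6a9, with no call. The values of Cyp6a9 varied more by replicate number than by genotype. Its values varied more by replicate number than by genotype. They averaged 51.4, 26.9, 70.5 and 27.5 normalized counts over the 5 genotypes in replicates 1, 2, 3 and 4, and replicate number held 57.4% of the variance of Cyp6a9 against 4.07% for genotype. Over all genes the median shares were 39.5% for replicate number and 18.5% for genotype.

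Comparing the heterozygotes with each other gave 42 differences over the 7 members, and 0 were called, under the fit reported and under every other setting run. An unadjusted p under 0.05 from limma was reached by 5 of the 42. Of all 9588 genes, 254 reached it for ASH1L/+ against WDFY3/+, 608 against CHD2/+ and 401 against CHD8/+. For WDFY3/+ it was 850 against CHD2/+ and 454 against CHD8/+, and for CHD2/+ against CHD8/+ it was 424. The share of all genes called was 0.0313% for ASH1L/+ against WDFY3/+, 0% against CHD2/+ and 0.0209% against CHD8/+, 0.073% for WDFY3/+ against CHD2/+ and 0.0417% against CHD8/+, and 0.0104% for CHD2/+ against CHD8/+. Library ranges were apart for 2 of the 42. Cyp6a8 was higher in ASH1L/+ than in CHD2/+ in all libraries (0.95, SE 0.47, adjusted p = 0.73 from limma), and Cyp6a19 was lower in WDFY3/+ than in CHD2/+ in all libraries (-0.94, SE 0.40, adjusted p = 0.53). Ranges were apart for 3.68% of all genes between ASH1L/+ and CHD2/+ and for 4.88% between WDFY3/+ and CHD2/+. In the other 4 pairs, where no member was apart, the shares of all genes were 1.4% for ASH1L/+ against WDFY3/+, 2.27% for ASH1L/+ against CHD8/+, 2.38% for WDFY3/+ against CHD8/+ and 3.19% for CHD2/+ against CHD8/+.

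Over the 20 libraries, 4 of the 21 pairs of members had r over 0.5, and the highest was that of Cyp6a23 and Cyp6a20, which are not neighbours. Pearson's r of their log2 values was 0.86, 0.84 after the mean of each genotype was subtracted, and 0.87 after the mean of each replicate number was subtracted as well. Cyp6a23 and Cyp6a19 had r = 0.66, and 0.68 within genotypes. Cyp6a22 and Cyp6a19 had r = 0.55, and 0.72 within genotypes, and Cyp6a17 and Cyp6a8, both lowest in WT, had r = 0.65, and 0.41 within genotypes. Cyp6a17 and Cyp6a23, the pair that may share reads, had r = -0.11, and 0.20 within genotypes. The first of these values includes the WT libraries, in which Cyp6a17 was close to 0. Whether the pair shares reads was not tested. Among all 21 pairs the median r was 0.21 and the lowest was -0.54, between Cyp6a20 and Cyp6a8. These are descriptions over libraries that share scaling and depth.

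**Figure D3:**
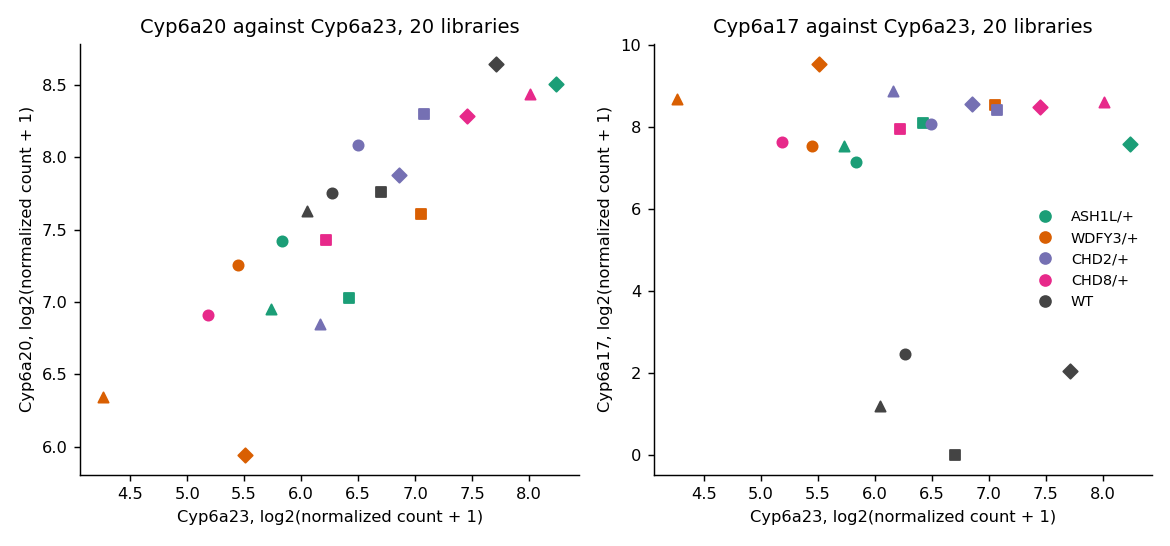
The log2 of the normalized count plus 1 of Cyp6a20 (left) and of Cyp6a17 (right) is plotted against that of Cyp6a23 for 20 libraries, coloured by genotype, with symbols by replicate number as in the plot of the members by library. Cyp6a20 follows Cyp6a23 across libraries of all genotypes (r = 0.86), whereas Cyp6a17 does not (r = -0.11), and the 4 WT libraries lie apart at the bottom of the right panel.

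Levels of other cell type markers moved with Cyp6a23 and some other members from library to library. Within genotypes, the r of Cyp6a23 was -0.84 with the mean log2 level of 8 neuronal markers, 0.69 with 9 fat body markers, 0.63 with 7 glial markers and 0.52 with 6 haemocyte markers. For Cyp6a20 the values were -0.53, 0.44, 0.35 and 0.61 in the same order, and for Cyp6a17 they were -0.29, 0.06, 0.53 and 0.00. Cyp6a19 had -0.71, 0.50, 0.71 and 0.17, and Cyp6a22 had -0.62, 0.61, 0.46 and 0.005. Cyp6a9 had -0.40, 0.25, 0.28 and 0.34, and Cyp6a8 had -0.07, 0.07, 0.12 and -0.08. The lists shown are those with the largest r, in either direction, for Cyp6a23. Other lists also reached such values, with -0.44 for Cyp6a17 and gut and Malpighian tubule markers. For Cyp6a19 and germ line markers it was -0.65, and for Cyp6a22 and cuticle markers -0.47. The summed level of the fat body markers was 111136 to 440910 in CHD8/+, 112337 to 316031 in CHD2/+, 103035 to 255609 in WDFY3/+ and 138038 to 468181 in ASH1L/+, against 77401 to 403307 in WT. The part of these markers in the levels of the members was not tested.

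The genes whose pattern was most like that of Cyp6a17 over the 20 libraries were asRNA:CR45126, an antisense RNA (r = 0.88), Spn47C, a serpin gene (r = 0.83), and ChLD3, a gene for a chitin-binding deacetylase (r = 0.81). Spn47C had 250 ± 40.0 normalized counts in CHD8/+, 240 ± 37.2 in WDFY3/+, 215 ± 59.8 in ASH1L/+ and 194 ± 40.7 in CHD2/+, against 100 ± 13.7 in WT (SD, n = 4 each). The difference was smaller than that of Cyp6a17, and the likeness rests mostly on the WT libraries. For Cyp6a23 the most alike genes were CG43093 (r = 0.92), pinta, which encodes a retinoid-binding protein of pigment cells (r = 0.92), and BI-1, an inhibitor of cell death (r = 0.90). For Cyp6a20 they were FBgn0016700 (r = 0.92), Tat, which encodes tyrosine aminotransferase (r = 0.92), and zyd, an ion exchanger of glia (r = 0.91).

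The genes around the cluster had no change of the size of that of Cyp6a17. The 3 protein-coding genes before it are CG33506, U3-55K and Pcf11, and the 3 after it are Cyp317a1, Kank and Agps. All 6 were measured, all 6 overlapped between each heterozygote and WT, and 0 were called in ASH1L/+, WDFY3/+, CHD2/+ or CHD8/+. Over all genes, 0.0521% to 0.271% were called in these comparisons and 1.6% to 5.54% had ranges apart. The counts of the neighbours are near those shares and set them apart from no other genes. Pcf11, which encodes a factor of transcript cleavage and lies next to Cyp6a22, had log2 changes of 0.55, -0.21, 0.18 and -0.44 in that order. Cyp317a1, the P450 gene on the other side, had -0.06, -0.13, 0.12 and 0.20.

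Other Cyp6a genes outside the cluster were Cyp6a2, which is known for insecticide resistance, Cyp6a13 and Cyp6a14, the 3 of 6 listed that passed the filter. None was called. In CHD8/+ all 3 were above 0, with log2 changes of 0.89 for Cyp6a2 (SE 0.31, adjusted p = 0.75 from limma), 1.04 for Cyp6a13 (SE 0.43, adjusted p = 1) and 0.58 for Cyp6a14 (SE 0.66, adjusted p = 1). Cyp6a2 had 59.9 to 137 normalized counts in CHD8/+, against 48.4 to 72.2 in WT, so the ranges overlapped. Cuticle markers were also higher in CHD8/+ than in WT, and their part in these values was not tested.

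Few of the other P450 genes passed the test. Of 9 other CYP6 genes, 12 other genes of the CYP3 clan and 22 of the CYP4 clan that passed the filter, 0 were called in any heterozygote. Over all genes the share called against WT was 0.0521% to 0.271%, so counts of 0 are near that share. Cyp6w1, a CYP6 gene, had a log2 change of 1.32 in WDFY3/+ (SE 0.36, adjusted p = 0.37 from limma), and Cyp6g1, known for resistance to DDT, had -0.44, -0.05, -0.37 and -0.56 in ASH1L/+, WDFY3/+, CHD2/+ and CHD8/+. Medians in the CYP4 clan were -0.34, -0.10, 0.03 and 0.09 in that order. Of 15 genes of the CYP2 and mitochondrial clans, 1 was called, Cyp12d1-d, in CHD8/+ and for the mean of the heterozygotes. The shares of all genes called there were 0.271% and 0.229%. It had 22.4 to 294 normalized counts in CHD8/+, 42.7 to 119 in WDFY3/+, 6.92 to 318 in ASH1L/+ and 0 to 10.4 in CHD2/+, against 0 to 8.25 in WT. All libraries of CHD8/+ and WDFY3/+ were above WT, and ranges were apart from WT in 3.01% and 2.22% of all genes. The log2 change of Cyp12d1-d was 5.40 in CHD8/+ (SE 1.05, adjusted p = 0.028 from limma), 4.96 in WDFY3/+ (SE 1.05, adjusted p = 0.10), 4.204 in ASH1L/+ (SE 1.05, adjusted p = 0.29), 1.37 in CHD2/+ (SE 1.05, adjusted p = 0.73) and 3.98 for the mean (SE 0.83, adjusted p = 0.048). The difference of WDFY3/+ from CHD8/+ was -0.44 (SE 1.05, adjusted p = 0.98 from limma), so the rise was not shown to be particular to CHD8/+. Cyp12d1-d also passed the filter through heterozygote libraries alone, so neither its call in CHD8/+ nor that for the mean is independent of the filter. With no filter its adjusted p from limma in CHD8/+ was 0.051. Over the other settings that p ran from 0.0078 to 0.14, so the call is not kept by all of them, and the near-identical copy Cyp12d1-p may share its reads. Cyp12d1-p had a log2 change of 1.51 in CHD8/+ (SE 0.87, adjusted p = 1).

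**Figure D4:**
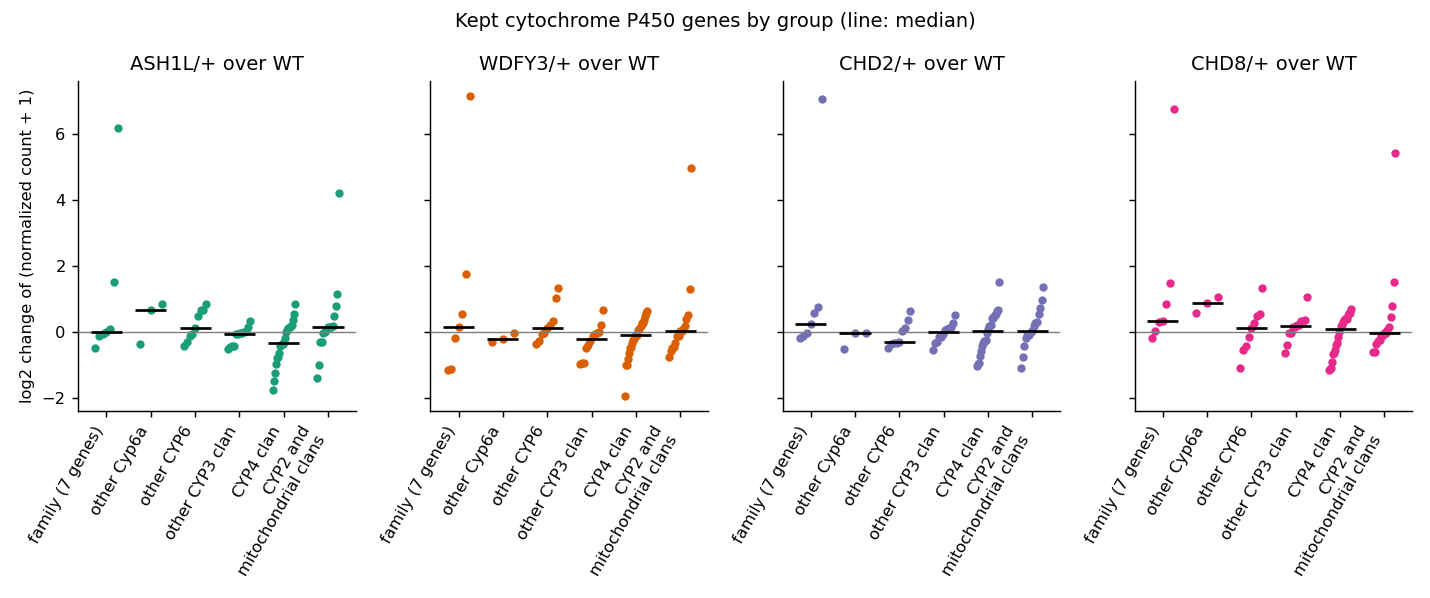
The log2 change from WT of the normalized count plus 1 is plotted for the P450 genes that passed the filter, by gene group and with the median as a line, in ASH1L/+, WDFY3/+, CHD2/+ and CHD8/+. Cyp6a17 is the highest point of the family in each panel, at 6.16 to 7.13, and Cyp12d1-d is the highest of the CYP2 and mitochondrial clans in CHD8/+, at 5.40.

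Of 12 partners and regulators of P450 genes measured, 0 were called in any heterozygote against WT. Over all genes the share called was 0.0521% to 0.271%, so this count is near that share. Cyt-b5, which passes electrons to P450 enzymes, had log2 changes of 0.31, 0.01, 0.56 and 0.32 in ASH1L/+, WDFY3/+, CHD2/+ and CHD8/+. The transcription factor cnc, which drives detoxification genes, had 0.08, -0.05, 0.06 and -0.19, and EcR, the ecdysone receptor, had 0.39, 0.26, -0.33 and -0.24.

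The double heterozygote CHD8/+; PP2R5D/+ was in a table of its own that holds no WT libraries and was scaled apart from the others. The study set it against WT and the single heterozygotes, but its values were not tested here and are only placed beside those of the other groups. Cyp6a17 was present in all 3 libraries, at 485, 364 and 321 normalized counts on that scale. As a share of the library total it was 79.8 ± 17.0 per 1000000 in CHD8/+; PP2R5D/+ (SD, n = 3) and 58.8 ± 14.9 per 1000000 in CHD8/+ (SD, n = 4), against 0.49 ± 0.42 in WT (SD, n = 4). Relative to RpL32, a ribosomal protein gene, Cyp6a17 was 47.7 ± 7.07 per 1000 in CHD8/+; PP2R5D/+ and 108 ± 38.8 in CHD8/+, against 0.84 ± 0.85 in WT. Its order between CHD8/+; PP2R5D/+ and CHD8/+ therefore turned with the scale, whereas both stood above WT on either scale. RpL32 itself held a larger share of the library total in CHD8/+; PP2R5D/+ than in CHD8/+.

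The means of the other 6 members were below those of CHD8/+ on both scales. By share of the library total, only 2 of the 6, Cyp6a20 and Cyp6a19, had all double heterozygote libraries below all CHD8/+ libraries. The share of all genes wholly apart between these 2 groups was not computed, so this count of members has no background beside it. Cyp6a20 had 42.1, 42.9 and 35.1 normalized counts in CHD8/+; PP2R5D/+, which is 7.03 to 9.10 per 1000000 of the library total, against 23.7 to 67.3 per 1000000 in CHD8/+. Cyp6a19 had 0.85, 2.53 and 5.02 normalized counts, or 0.17 to 1.01 per 1000000, against 5.77 to 17.8 per 1000000 in CHD8/+. Relative to RpL32 all 6 members were wholly below CHD8/+. Since RpL32 held a larger share of the total in CHD8/+; PP2R5D/+, a gene with an equal share of the total also reads lower there. The share of all genes wholly apart was not computed on this scale either. On that scale Cyp6a20 was 4.34 to 5.96 per 1000 in CHD8/+; PP2R5D/+ and 43.3 to 141 in CHD8/+, and Cyp6a19 was 0.09 to 0.62 in CHD8/+; PP2R5D/+ and 10.52 to 25.2 in CHD8/+. The 2 tables also differ in scaling and in the genes they list, and the part of this in the values was not tested. The other 4 members overlapped by share of the total. Cyp6a23 had 44.7, 5.05 and 41.1 normalized counts in CHD8/+; PP2R5D/+, or 1.07 to 9.01 per 1000000, beside 7.03 to 49.95 in CHD8/+ and 16.05 to 43.8 in WT, so it lay wholly below WT and overlapped CHD8/+. Relative to RpL32, Cyp6a23 was 0.70 to 5.08 per 1000 in CHD8/+; PP2R5D/+ and 12.8 to 79.1 in CHD8/+, against 21.4 to 64.2 in WT. Cyp6a22 was 3.9999 to 9.996 per 1000000 in CHD8/+; PP2R5D/+ and 7.34 to 14.0 in CHD8/+. Cyp6a8 was 0 to 3.74 per 1000000 in CHD8/+; PP2R5D/+ and 2.27 to 3.60 in CHD8/+. Cyp6a9 was 0.80 to 4.75 per 1000000 in CHD8/+; PP2R5D/+ and 4.55 to 13.4 in CHD8/+.

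Within a library the scale cancels, so the share of Cyp6a17 in the sum over the 7 members could be placed side by side in all groups. It was 75.5% ± 5.14 in CHD8/+; PP2R5D/+ (SD, n = 3), 54.6% ± 15.3 in WDFY3/+, 43.1% ± 10.4 in CHD2/+, 36.7% ± 4.44 in CHD8/+ and 32.9% ± 12.2 in ASH1L/+ (SD, n = 4 each), against 0.48% ± 0.49 in WT (SD, n = 4). The share was highest in the double heterozygote, where all 3 libraries, at 72.0% to 81.4%, were above all 16 libraries of the single heterozygotes. The libraries of the double heterozygote are labelled as a set apart from all others, with no WT library among them. Differences between sets of libraries other than scale do not cancel, so genotype and library set cannot be told apart in this share. A share shows unequal change among the members and not which of them changed.

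**Figure D5:**
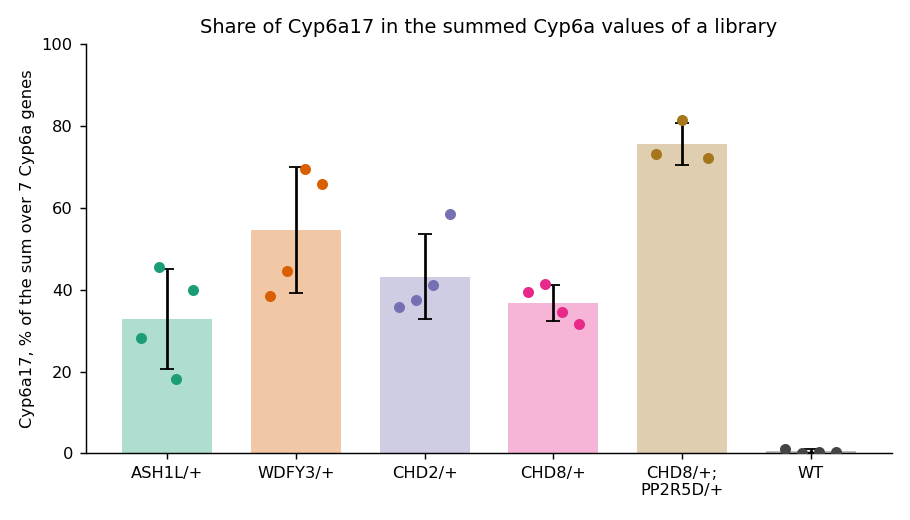
The share of Cyp6a17 in the summed normalized counts of 7 Cyp6a genes is plotted for each library of ASH1L/+, WDFY3/+, CHD2/+, CHD8/+, CHD8/+; PP2R5D/+ and WT, with the mean as a bar and the SD as an error bar. The share is 72.0% to 81.4% in CHD8/+; PP2R5D/+, 18.2% to 69.4% in the single heterozygotes and at most 1.16% in WT.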

How the data were processed

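RNA from adult heads was sequenced from 3' ends in 23 libraries. The authors assigned reads to transcripts of BDGP6 with Salmon 0.12.0, list DESeq2 among their tools, and deposited signal values named normalized counts. The 5 tables of the single heterozygotes and WT share 1 scale, and the double heterozygote's table was scaled apart. Whole reads could not be recovered: 43.8% to 81.9% of low values per library (median 71.9%) were whole multiples of the most frequent low value within 2%, so count models were not used. Read numbers quoted here are estimates that rest on that step.

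Values were taken to log2 after adding 1, which understates changes of low genes, and genes that reached 10 in 4 or more of 20 libraries were kept. The fit had 1 mean for each genotype and a variance trend (limma 3.58.1, R 4.3.3). Called genes had an adjusted p under 0.05 (Benjamini-Hochberg) and a 1.5-fold or larger change. A batch term was part of the authors' own model, but the batch of each library is not given in the sources used here. Same-numbered libraries were taken as paired where the correlation of deviations from group means with WT exceeded 0.1 for all 4 numbers. The lowest was 0.34 in ASH1L/+, 0.32 in WDFY3/+ and 0.21 in CHD8/+, which were paired, and 0.07 in CHD2/+, which was not.

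Symbols were matched by identifier for 17253 of 17559 genes, and coordinates come from the Ensembl annotation of the same assembly. No values per sample were left unused. The fit was tested on simulated data. Python 3.11.15, pandas 2.3.3, numpy 2.4.6, scipy 1.17.1 and matplotlib 3.10.9 made the other tables and the figures. The alternatives were other scalings (equal totals, median-ratio factors, quantiles), added values of 0.5, 5 and 10, other filters, a fit of 2 groups, no variance trend, the replicate block, other fold minimums, a cuticle marker covariate, leaving out each library, and Cyp6a17 summed with Cyp6a23.

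The members and lists were chosen with earlier results of these data known. Genes named are the members, the 3 genes most correlated with Cyp6a17, Cyp6a23 and Cyp6a20, the 3 protein-coding neighbours on each side, and from each gene list those called or else up to 3 with the highest mean. Cyp6a21 is not analysed here.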

Additional observations from a re-analysis of the deposited data

Results flagged for a closer look

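In groups of 4 libraries, a single library stood apart in 2 of the 35 sets examined (7 members in 5 genotypes), and chance alone sets apart about 1 in 20. Cyp6a23 in ASH1L/+ replicate 3 had 301 normalized counts, with a gap of 0.869 of the range of its group. Cyp6a20 in WT replicate 3 had 400.1 normalized counts, with a gap of 0.907 of the range. ASH1L/+ replicate 3 also had the highest library total, 8.56 M normalized counts, while WT replicate 3 had 4.76 M.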

How the results depend on the processing

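The 32 tested log2 changes of members and named P450 genes gave 1081 values under the alternatives, of which 1031 kept their direction and their side of the threshold, 40 changed sign, 10 lost a call and 0 gained one. No change that changed sign was called. The cause of these differences was not tested. The 4 untested changes of Cyp6a17 from WT gave 140 values, of which 0 changed sign and 11 moved by more than the spread between replicates, 4 of them on summing with Cyp6a23. Cyp6a17 was chosen by this contrast, so the kept sign is no separate support for it. The call of Cyp12d1-d in CHD8/+ was lost with 10 added before the log (3.19), without a filter (5.40), in the fit of 2 groups (5.40), with the cuticle covariate (6.26) and on leaving out any of 6 libraries, CHD8/+ replicates 1, 3 and 4 and WT replicates 2, 3 and 4.

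Signs turned for equal library totals in Cyp6a23 of CHD8/+ (-0.13), Cyp6a22 of ASH1L/+ (-0.30) and Cyp6a19 of ASH1L/+ (-0.21), for quantile normalization in Cyp6a23 of CHD8/+ (-0.016), and for the cuticle covariate in Cyp6a23 of CHD8/+ (-0.19) and Cyp6a22 of ASH1L/+ (-0.051). Leaving out single libraries gave ranges that cross 0. Cyp6a23 ran from -0.69 to 0.22 in ASH1L/+, -0.25 to 0.31 in CHD2/+ and -0.40 to 0.54 in CHD8/+. Cyp6a22 ran from -0.50 to 0.47 in ASH1L/+ and -0.28 to 0.49 in CHD2/+. Cyp6a19 ran from -0.24 to 0.35 in ASH1L/+, -0.52 to 0.078 in WDFY3/+ and -0.043 to 0.55 in CHD8/+. Cyp6a20 ran from -0.35 to 0.14 in CHD2/+ and -0.41 to 0.10 in CHD8/+. Cyp6a9 ran from -0.43 to 0.38 in ASH1L/+, -0.16 to 0.45 in WDFY3/+ and -0.51 to 0.18 in CHD2/+.

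Counts of called genes depended on the setting. With the replicate block they were 116 in CHD2/+, 71 in CHD8/+, 24 in WDFY3/+, 20 in ASH1L/+ and 47 for the mean of the heterozygotes against WT, and all genes called without the block were among them. Between heterozygotes the block gave 9 for ASH1L/+ against WDFY3/+, 34 against CHD2/+ and 17 against CHD8/+, 26 for WDFY3/+ against CHD2/+ and 14 against CHD8/+, and 16 for CHD2/+ against CHD8/+. It changed no call of a member. Against WT, the fit of 2 groups gave 13 in CHD8/+, 6 in CHD2/+, 4 in ASH1L/+ and 3 in WDFY3/+, no filter gave 3 in WDFY3/+ and 17 in CHD8/+, quantile normalization gave 8 in WDFY3/+, the cuticle covariate gave 8 in WDFY3/+ and 7 in CHD8/+, and 10 added before the log gave 13 for the mean. For ASH1L/+ against WDFY3/+ the counts were 5 with 5 or 10 added, 5 without a filter, 5 with the covariate, 8 without the trend, 1 with at least 50 in 4 libraries and 0 in the fit of 2 groups. For ASH1L/+ against CHD2/+ they were 5 with equal totals and 1 with 5 or 10 added. For ASH1L/+ against CHD8/+ they were 8 with equal totals, 5 with quantiles, 0 without a filter and 1 in the fit of 2 groups. For WDFY3/+ against CHD2/+ they were 3 with quantiles and 2 with the stricter filter or 2 groups. For WDFY3/+ against CHD8/+ they were 2 with quantiles or 0.5 added, 7 with 10 added or no trend and 1 with the stricter filter. For CHD2/+ against CHD8/+ they were 2 with equal totals, 10 added or no trend, and 0 with median-ratio factors, quantiles, 0.5 added, no filter, the stricter filter, 2 groups or the covariate.

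Leaving out single libraries gave 7 to 41 calls in CHD8/+ (without its replicates 4 and 1), 7 to 29 in CHD2/+ (without WT replicate 4 and ASH1L/+ replicate 3), 2 to 10 in WDFY3/+ (without WT replicate 2 or 4 and without ASH1L/+ replicate 3), 6 to 10 in ASH1L/+ and 10 to 24 for the mean against WT, and 1 to 7 (ASH1L/+ against WDFY3/+), 0 to 4 (ASH1L/+ against CHD2/+), 0 to 16 (ASH1L/+ against CHD8/+), 1 to 9 (WDFY3/+ against CHD2/+), 1 to 9 (WDFY3/+ against CHD8/+) and 0 to 2 (CHD2/+ against CHD8/+). The log2 ratio of the mean level of Cyp6a17 in CHD8/+; PP2R5D/+ over CHD8/+ was 0.44 by share of the total and -1.18 relative to RpL32. For the other 6 members it was below 0 on both scales, from -4.22 to -0.53 by share and from -5.73 to -2.12 relative to RpL32. The median standard error of a log2 change was 0.44, which limits what these libraries can show for low and variable members such as Cyp6a8.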
